A study of Mus musculus with 12 samples.

Results

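The 40 genes described here act in G2 and mitosis, from the cyclins and kinases that start division to the motors and scaffolds that part the daughter cells. They were taken from a fixed list of symbols that was chosen with earlier results of these data known. All 40 were among the 22609 gene symbols counted in every library. Counts were low: 32 of the 40 passed the filter on low counts that left 13255 genes to test, and the other 8 (Ccnb1, Bub1, Ttk, Cenpf, Nuf2, Ndc80, Kif2c and Ncapg) are described by their raw counts.

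The livers came from 8-week-old male C57BL/6 mice that were wild type or TRIM21 knockout, and total RNA was sequenced after depletion of ribosomal RNA. Mice had received 1 intraperitoneal dose of 200 mg/kg diethylnitrosamine (DEN), a carcinogen that hepatocytes activate into a DNA-alkylating agent, or PBS alone, and liver was taken 48 h later. TRIM21 is a cytosolic ubiquitin ligase and antibody receptor, and how its allele was made is not given in the sources used here. There were 3 wild-type libraries under PBS (PBSWT), 3 knockout libraries under PBS (PBSKO), 3 wild-type libraries under DEN (DENWT), 2 knockout libraries under DEN (DENKO) and 1 DEN library labelled TRIM21+/- (DENHET). Gene counts totalled 17303124 to 23059252 per library. Trim21 had 93 to 225 counts in the wild-type libraries and 3 to 5 in the knockout libraries. The library labelled heterozygote had 7, which goes against its label, so its values stand beside the others and outside every test. The liver label held: 7 of 7 hepatocyte markers were detected in every group, with a summed level of 74300 to 118000 counts per 1000000 gene counts (CPM).

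Adult hepatocytes are mostly quiescent and return to the cell cycle after injury, which makes mitotic genes a usual readout of liver regeneration. Cyclin-dependent kinase 1 with cyclins A and B drives entry into mitosis, Aurora and Polo-like kinases build the spindle, and the spindle checkpoint holds the anaphase-promoting complex until every kinetochore is attached. Most of these genes are silent in resting cells through the DREAM complex, which binds CHR elements in their promoters, and are switched on in G2 by the MuvB core with B-MYB and FOXM1, together with NF-Y at CCAAT boxes. After DNA damage, p53 favours the DREAM-bound state of the same promoters by inducing p21.

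Because this promoter design is what the genes are known to share, the sequences of the 4 members with the highest number of comparisons called are shown (3 for Spc25 and Cenpa, 2 for Mad2l1 and Mki67, with ties taken by the lowest p after DEN in wild type), for a gene that was higher after DEN (Spc25), a pair that was lower (Cenpa and Mki67) and a further gene that was higher (Mad2l1). Aurkb would have come before Mki67 but has no entry in the table used. Each run holds 250 bases before to 50 bases after the transcription start in RefSeq on GRCm38.p6, read 5′ to 3′ along the gene. Capitals mark the CHR letters TTTGAA or TTCGAA and the CCAAT box on either strand, so that ATTGG is a CCAAT box on the other strand. TTCGAA reads the same on both strands.
Spc25, chr2:69206164-69206463, minus strand: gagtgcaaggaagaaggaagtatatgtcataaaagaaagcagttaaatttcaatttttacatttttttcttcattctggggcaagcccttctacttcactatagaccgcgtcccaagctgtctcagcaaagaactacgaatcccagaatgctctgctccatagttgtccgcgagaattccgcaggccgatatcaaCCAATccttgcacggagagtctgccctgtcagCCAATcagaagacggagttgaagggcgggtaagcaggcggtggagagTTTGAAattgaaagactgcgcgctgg
Cenpa, chr5:30666636-30666935, plus strand: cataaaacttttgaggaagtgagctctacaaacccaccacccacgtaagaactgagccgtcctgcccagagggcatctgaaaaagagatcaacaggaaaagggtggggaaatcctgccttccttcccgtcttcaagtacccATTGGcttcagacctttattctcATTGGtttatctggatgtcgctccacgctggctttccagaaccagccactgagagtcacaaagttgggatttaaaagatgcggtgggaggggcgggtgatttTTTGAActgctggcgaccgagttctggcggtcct
Mki67, chr7:135716330-135716629, minus strand: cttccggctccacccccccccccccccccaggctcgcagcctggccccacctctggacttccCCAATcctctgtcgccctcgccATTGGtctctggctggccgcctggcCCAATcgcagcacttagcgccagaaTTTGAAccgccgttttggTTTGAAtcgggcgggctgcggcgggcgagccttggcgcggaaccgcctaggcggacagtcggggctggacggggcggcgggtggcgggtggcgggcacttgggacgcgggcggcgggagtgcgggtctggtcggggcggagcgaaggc
Mad2l1, chr6:66534971-66535270, plus strand: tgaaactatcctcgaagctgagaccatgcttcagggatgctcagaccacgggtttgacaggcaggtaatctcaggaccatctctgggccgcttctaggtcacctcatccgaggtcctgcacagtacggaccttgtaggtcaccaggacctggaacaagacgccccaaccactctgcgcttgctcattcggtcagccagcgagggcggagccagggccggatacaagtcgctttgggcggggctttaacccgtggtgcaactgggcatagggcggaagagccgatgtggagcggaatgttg

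In Spc25, the CHR letters began 24 bases after the start site and the CCAAT boxes began 55 and 23 bases before it. Cenpa had the same makeup, with the CHR letters 16 bases after the start and CCAAT boxes on the opposite strand beginning 109 and 86 bases before it. Mki67 held 2 CHR matches, 116 and 98 bases before the start, and 3 CCAAT boxes. The Mad2l1 window held none of these letters. Over the 35 of 40 members with an entry, 28 (80%) held a CHR match, 28 (80%) a CCAAT box and 25 (71.4%) both, against 19.4%, 37.9% and 7.7% of 27025 genes with 1 promoter each. Among the members called after DEN in wild type, described below, 4 of the 5 with an entry that were higher and 8 of the 10 that were lower held a CHR match, and the same numbers held a CCAAT box. A match is a description of letters in this window and not a measured binding site.

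**Figure D1:**
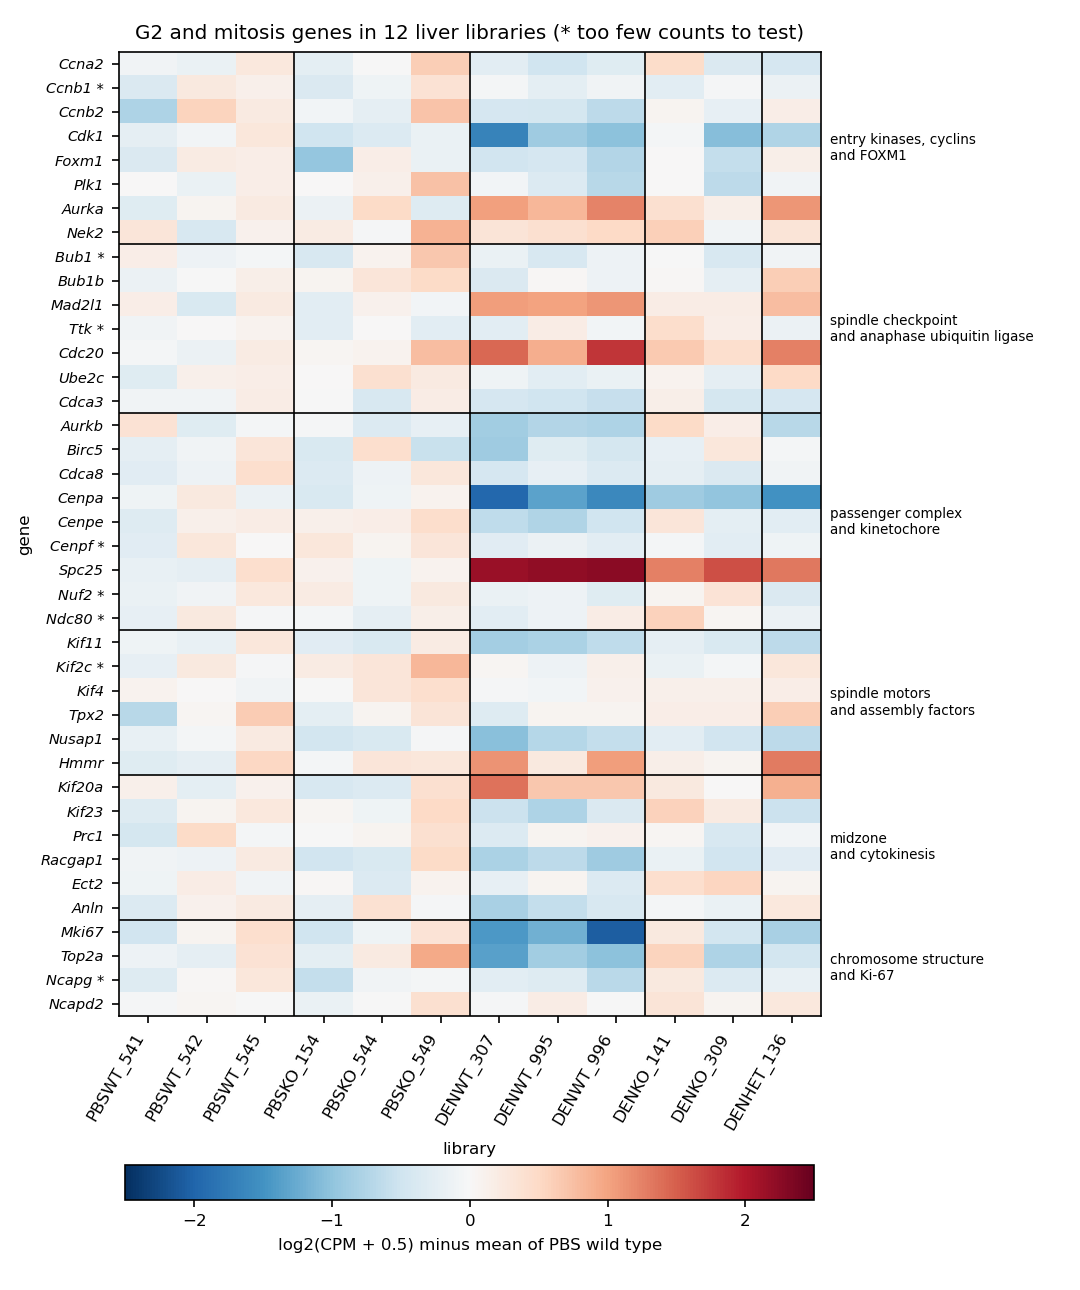
Level of each of the 40 genes (rows, grouped by role) in each of the 12 libraries (columns), as log2(CPM + 0.5) minus the mean of the 3 PBS wild-type libraries; red is higher, blue is lower, and a star marks the 8 genes with too few counts to test. Under DEN, rows such as Spc25, Mad2l1 and Cdc20 are red and rows such as Cenpa, Mki67 and Cdk1 are blue in the 3 wild-type libraries, with paler colours in the 2 knockout libraries.

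The first comparison asked how these genes stood 48 h after DEN in wild-type liver. They did not move together. Of the 32 tested members, 6 were higher (Spc25, Mad2l1, Cdc20, Aurka, Kif20a and Hmmr) and 11 were lower (Cenpa, Mki67, Aurkb, Cdk1, Nusap1, Kif11, Cenpe, Racgap1, Top2a, Anln and Kif23), and 15 did not pass, in edgeR's quasi-likelihood test with Benjamini-Hochberg adjustment over all 13255 genes at 0.05. The largest rise was in a kinetochore subunit, Spc25, at 4.9-fold, and the lowest adjusted p among the falls was that of the centromeric histone Cenpa. DEN changed much of the transcriptome, and 55.8% of all tested genes were called here, 29.2% higher and 26.7% lower, and the members' shares of 18.8% higher and 34.4% lower are to be read against that background. Their median log2 fold change was −0.58, beside 0.04 over all tested genes.

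Among the 7 tested genes of mitotic entry, 1 was higher and 1 was lower. Cdk1, the kinase that drives entry, had 35, 46 and 48 counts in PBSWT_541, PBSWT_542 and PBSWT_545 and 11, 25 and 29 in DENWT_307, DENWT_995 and DENWT_996. Every DEN library was below every PBS library in CPM, which divides by the TMM-scaled library size, and Cdk1 fell by 1.57 ± 0.39 on the log2 scale (SE, adjusted p = 0.0041, n = 3 and 3). Aurka, the kinase of centrosome maturation and spindle assembly, had 13, 22 and 20 counts under PBS and 65, 50 and 95 under DEN. Groups without overlap in CPM were the usual state in this comparison, with 64.7% of all tested genes, and among the 32 members 6 lay above and 15 below. Aurka rose by 1.33 ± 0.33 (adjusted p = 0.0039), from 1.09 ± 0.284 to 2.74 ± 0.471 CPM (SD). Foxm1, the transcription factor that switches on the G2 genes, had 9, 20 and 15 counts under PBS and 11, 11 and 9 under DEN, a difference of −1.04 ± 0.53 that did not pass (adjusted p = 0.11). Ccna2 (−0.52 ± 0.39), Ccnb2 (−1.22 ± 0.60), Plk1 (−0.93 ± 0.68) and Nek2 (0.47 ± 0.33) did not pass either. Ccnb1, which encodes the main mitotic cyclin B, was at the limit of detection, with 0, 5 and 3 counts under PBS and 3, 1 and 3 under DEN, so no difference in it was detectable at this depth.

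Of the 5 tested genes of the spindle checkpoint and the anaphase ubiquitin ligase, 2 were higher and none was lower. Mad2l1, which encodes the checkpoint protein MAD2, had 62, 46 and 58 counts under PBS and 174, 156 and 223 under DEN. Cdc20, the activator of the anaphase-promoting complex that MAD2 holds in check, had 9, 9 and 11 counts under PBS and 58, 33 and 94 under DEN. Both stood apart from the PBS libraries in every DEN library, Mad2l1 with a rise of 1.14 ± 0.21 (adjusted p = 0.0005) and Cdc20 with one of 2.04 ± 0.40 (adjusted p = 0.00077). Exons of Cdc20 overlap those of Elovl1 on the other strand by 53 bases, and without a known strand setting of the counting the reads there cannot be told apart. The checkpoint kinase gene Bub1b (−0.25 ± 0.35), the ubiquitin-conjugating enzyme gene Ube2c (−0.40 ± 0.43) and Cdca3 (−0.64 ± 0.28) did not pass.

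The kinetochore and the chromosomal passenger complex, which senses and corrects spindle attachment, held the largest changes in both directions: of 6 tested genes 1 was higher and 3 were lower. Spc25, a subunit of the NDC80 complex that grips the spindle microtubules, had 72, 80 and 102 counts under PBS and 580, 546 and 752 under DEN. Its mean level was 5.12 ± 1.49 CPM under PBS and 24.9 ± 0.664 CPM under DEN (2.29 ± 0.19 in log2, adjusted p = 9.2e-07). Of its partners in that complex, Ndc80 (1 to 5 counts per library under PBS, 1 to 7 under DEN) and Nuf2 (2 to 5 and 2 to 3) were barely detected. Spc24, a further subunit outside the 40 genes, had 258, 333 and 227 counts under PBS and 63, 146 and 66 under DEN. It went the other way from Spc25 (−2.08 ± 0.36, adjusted p = 0.00062). Cenpa, the histone H3 variant that marks centromeres, also fell, from 83, 123 and 72 counts under PBS to 24, 40 and 42 under DEN (−1.94 ± 0.25, adjusted p = 3.2e-05). Aurkb, the kinase of the passenger complex, had 16, 8 and 9 counts under PBS and 3, 4 and 5 under DEN (−2.0 ± 0.48, adjusted p = 0.003). Cenpe, a kinetochore motor, had 3, 8 and 7 counts under PBS and 1, 0 and 3 under DEN (−2.63 ± 0.77, adjusted p = 0.011). For Cenpa, Aurkb and Cenpe no DEN library reached the lowest PBS library in CPM. The passenger subunits Birc5, which encodes survivin (−0.70 ± 0.37), and Cdca8, which encodes borealin (−0.50 ± 0.34), did not pass.

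Spindle, midzone and chromosome genes were more often lower than higher. Among 5 tested spindle genes, Hmmr rose and Kif11 and Nusap1 fell. Hmmr, a spindle assembly factor, had 2, 3 and 9 counts under PBS and 28, 9 and 32 under DEN (1.66 ± 0.58, adjusted p = 0.026), and its groups overlapped in CPM. Kif11, the motor that pushes the spindle poles apart, had 21, 22 and 27 counts under PBS and 13, 13 and 21 under DEN (−1.17 ± 0.34, adjusted p = 0.01). Nusap1, which bundles spindle microtubules, had 8, 11 and 12 counts under PBS and 1, 4 and 7 under DEN (−1.92 ± 0.54, adjusted p = 0.0086). Exons of Nusap1 overlap those of Oip5 on the other strand. Kif4 (0.01 ± 0.44) and Tpx2 (−0.25 ± 0.52) did not pass.

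Of the 6 genes of the midzone and cytokinesis, 1 rose and 3 fell. Kif20a, a motor that carries the passenger complex to the midzone, had 17, 13 and 15 counts under PBS and 73, 38 and 51 under DEN (1.27 ± 0.38, adjusted p = 0.012). Its exons share 1271 bases with Cdc23 on the other strand, so reads of these genes cannot be told apart there. Kif23, a motor of the centralspindlin complex, had 6, 12 and 12 counts under PBS and 6, 3 and 10 under DEN (−1.23 ± 0.50, adjusted p = 0.048). Racgap1, its partner in that complex, had 12, 13 and 15 counts under PBS and 6, 7 and 6 under DEN (−1.62 ± 0.50, adjusted p = 0.014). Anln, the scaffold anillin of the contractile ring, had 8, 16 and 14 counts under PBS and 5, 7 and 13 under DEN (−1.18 ± 0.44, adjusted p = 0.036). The 2 groups did not overlap in CPM for these 4 genes. Prc1 (−0.19 ± 0.51) and Ect2 (−0.27 ± 0.33) did not pass.

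Of the 3 tested genes of chromosome structure, 2 fell. Mki67, which encodes the proliferation marker Ki-67, had 27, 49 and 51 counts under PBS and 14, 17 and 6 under DEN (−2.31 ± 0.47, adjusted p = 0.001). Top2a, the topoisomerase that untangles sister chromatids, had 26, 27 and 36 counts under PBS and 9, 16 and 18 under DEN (−1.63 ± 0.52, adjusted p = 0.017). Both were below every PBS library in every DEN library. The condensin subunit gene Ncapd2 had 58 to 77 counts under PBS and 92 to 114 under DEN and did not pass once scaled (0.06 ± 0.21, adjusted p = 0.83).

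The calls were not equally firm. Spc25, Mad2l1, Cdc20, Aurka, Cenpa, Mki67, Aurkb, Cdk1, Cenpe and Nusap1 passed under every alternative in which they were tested, including each left-out library, while Kif23, Anln, Hmmr, Kif20a, Kif11, Racgap1 and Top2a each missed the threshold under at least 1. The effective library size matters, since TMM multiplied it by 1.12 to 1.28 under DEN and by 0.839 to 0.895 under PBS. Scaled by the total of gene counts instead, the median log2 fold change of all tested genes in wild type was 0.53, with 6893 genes higher and 1856 lower in place of 3868 and 3534. In that scaling 8 members were higher, the 6 above among them, and 6 were lower, with Kif11, Kif23, Racgap1, Top2a and Anln no longer past the threshold. No called member changed sign.

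In whole liver, fewer cells of a type and less RNA per cell cannot be told apart. The markers of T and NK cells, 7 of 8 in the files, summed to 4.63 to 9.08 CPM in the PBS wild-type libraries and 0.748 to 1.17 CPM in the DEN wild-type libraries, with none at 0 across a group. Those of Kupffer cells and macrophages (7 of 7) summed to 143 to 329 and 74.4 to 181 CPM, and those of B and plasma cells (5 of 6) to 7.88 to 12.2 and 4.66 to 8.86 CPM. Erythroid precursor markers (9 of 9) summed to 240 to 251 and 95.5 to 107 CPM, with Rhag at 0 in both groups and Hemgn at 0 under PBS. Neutrophil and monocyte markers (7 of 8) went the other way, from 2.62 to 3.43 CPM, with Elane at 0, to 9.14 to 24.4 CPM. Stellate cell markers (5 of 5) summed to 62.9 to 72.6 and 38.4 to 52.3 CPM and hepatocyte markers to 105000 to 118000 and 80400 to 105000 CPM, while endothelial markers (6 of 6) overlapped at 59.7 to 111 and 86.4 to 115 CPM and bile duct markers (4 of 4) at 4.69 to 10.4 and 8.28 to 13.9 CPM. Genes within a list did not always move together. In the stellate list Reln stood at 30.9 to 39.9 CPM under PBS and 5.23 to 6.23 under DEN, while Rgs5 stood at 2.05 to 3.62 and 10.1 to 11.7. In the Kupffer list Clec4f stood at 59.1 to 121 and 15.3 to 38.1, while Marco stood at 3.07 to 5.19 and 20.4 to 49.5. In the erythroid list Alas2 stood at 184 to 192 and 16.2 to 28.6, while Tfrc stood at 25.3 to 30 and 62.5 to 87.6. The share of listed counts in tally lines that name no gene was 71.6% to 78.7% in the PBS libraries of both genotypes and 61.4% to 64.9% in the DEN wild-type and knockout libraries. The Kupffer and B cell sums overlapped slightly between the treatments as well, and the other marker sums and the tally share did not overlap or touched at 1 end. They moved with the changes in the members named above, and their part in the result was not tested.

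**Figure D2:**
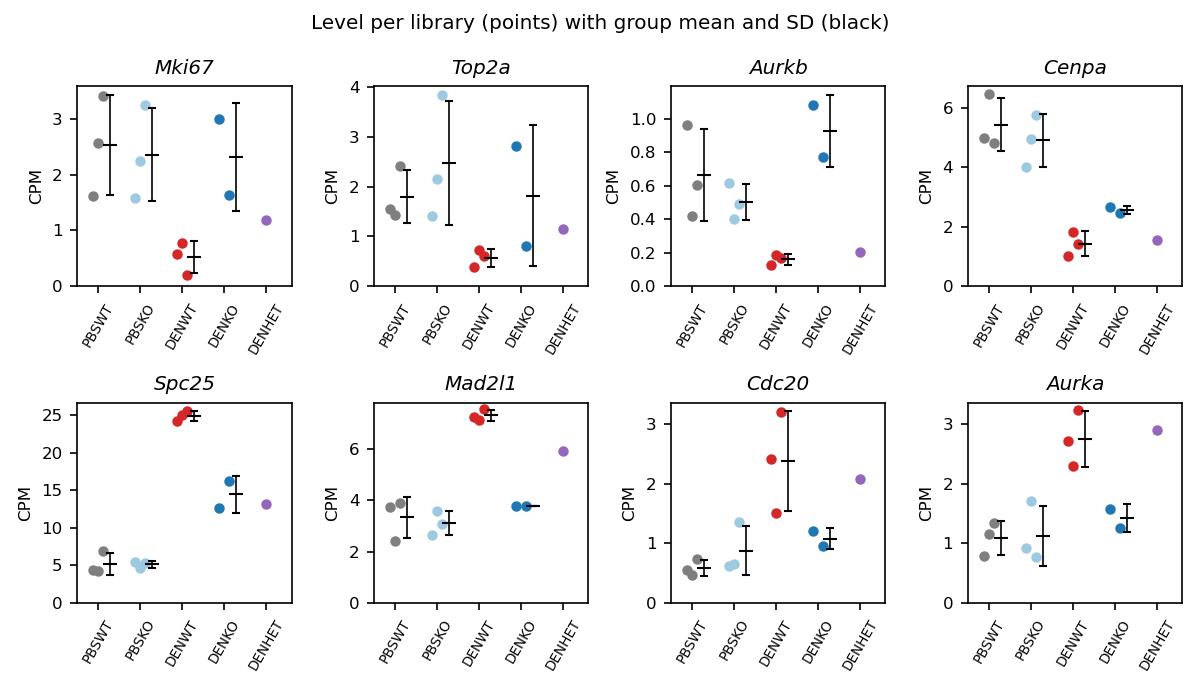
CPM of 8 genes (panels, each with its own linear axis from 0) in each library; points are libraries, and black marks give the group mean with its SD. Mki67, Top2a, Aurkb and Cenpa are lowest in the DEN wild-type group, while Spc25, Mad2l1, Cdc20 and Aurka have their highest group mean there among the 4 groups with replicates, with Spc25 at 24.2 to 25.6 CPM against 4.2 to 6.83 CPM under PBS.

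In the knockout, DEN moved 2 of the 32 tested members past the threshold, beside 22.7% of all tested genes (12% higher and 10.7% lower). Spc25 rose, from 88, 92 and 98 counts in PBSKO_154, PBSKO_544 and PBSKO_549 to 329 and 377 in DENKO_141 and DENKO_309 (1.5 ± 0.20, adjusted p = 0.00022, n = 2 and 3). Cenpa fell, from 65, 99 and 106 counts to 69 and 57 (−0.94 ± 0.27, adjusted p = 0.025). Both knockout DEN libraries lay outside the PBS range in CPM for both genes, as they did for 51.5% of all tested genes. The call of Cenpa was lost without DENKO_141 (adjusted p = 0.088), DENKO_309 (0.17) or PBSKO_549 (0.063) and with library totals (0.13), while Spc25 passed under every alternative. With library totals, the median of all genes was 0.41 in place of 0.01, the split of all calls was 4724 higher and 573 lower in place of 1594 and 1416, and 4 members were higher and none lower.

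None of the other members called in wild type passed in the knockout. Mki67 had 26, 45 and 60 counts in knockout liver under PBS and 78 and 38 under DEN, a difference of −0.02 ± 0.45 (adjusted p = 0.98). Aurkb had 10, 8 and 9 counts under PBS and 28 and 18 under DEN, and both DEN libraries were above all 3 PBS libraries, but its difference of 0.90 ± 0.43 did not pass (adjusted p = 0.15). Top2a went from 23, 43 and 71 counts to 73 and 19 (−0.43 ± 0.50), so that DENKO_141 lay inside the PBS range of 1.41 to 3.85 CPM, at 2.82 CPM, and DENKO_309 below it, at 0.816 CPM. Cdk1 went from 27, 38 and 41 counts to 63 and 22 (−0.18 ± 0.42), with DENKO_141 above the PBS range in CPM and DENKO_309 below it. Among the genes that had been higher in wild type, the differences in the knockout were 0.28 ± 0.24 for Mad2l1, 0.30 ± 0.43 for Cdc20, 0.32 ± 0.37 for Aurka, 0.30 ± 0.44 for Kif20a and −0.22 ± 0.67 for Hmmr, and none passed. The median over the 32 tested members was −0.15, beside 0.01 over all tested genes.

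**Figure D3:**
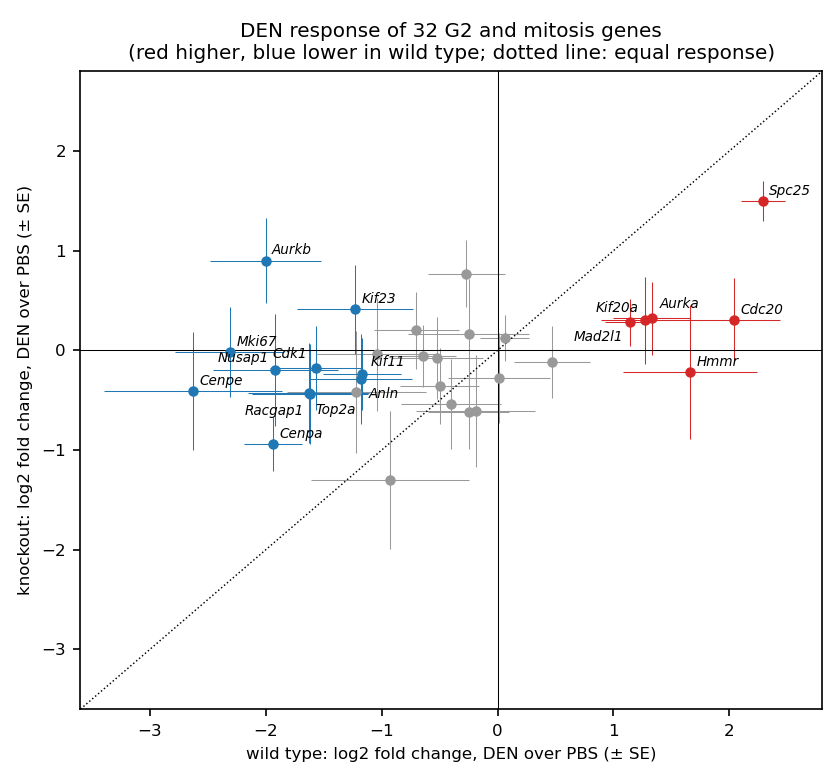
DEN response of the 32 tested genes in wild type (x axis) and in the knockout (y axis), each as log2 fold change over PBS with its SE; red and blue mark genes called higher and lower in wild type, grey marks the rest, and the dotted line is an equal response. The coloured points lie nearer to 0 on the y axis than on the x axis, Spc25 stays high on both (2.29 and 1.5), and Aurkb lies on opposite sides of 0 (−2.0 and 0.90). Coloured genes were picked by their wild-type call, which favours large x values, so their position is no test of a weaker knockout response. In the test of the difference, 1 of the 32 passed.

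Without DEN, the genotypes could not be told apart in these genes. Knockout against wild type under PBS gave 0 called members in edgeR, DESeq2 and limma-voom, and 0 of the 32 at an unadjusted p under 0.05 in each, beside 0.00754% of all tested genes called. In edgeR, 508 of all 13255 tested genes were under that unadjusted p. The 3 members of lowest p were Nek2 (0.46 ± 0.34), Cdc20 (0.60 ± 0.44) and Bub1b (0.46 ± 0.34), each at an adjusted p of 1 in edgeR. For Mki67 the difference was −0.09 ± 0.41 and for Spc25 it was 0.01 ± 0.20. No tested member had its 3 knockout libraries all above or all below the 3 wild-type libraries, beside 8.1% of all tested genes. The standard errors show how wide a difference could have gone unseen in the scarcer genes, such as 0.61 for Plk1 and 0.66 for Hmmr.

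The comparison of genotypes under DEN bears on the compensatory proliferation named in the title of the series. Of the 32 tested members, 6 were higher in the knockout (Aurkb, Mki67, Kif23, Cenpe, Cenpa and Top2a) and 2 were lower (Mad2l1 and Spc25), beside 22.1% of all tested genes called, 12.2% higher and 9.85% lower. The median over the members was 0.54, beside 0.01 over all tested genes. At an unadjusted p under 0.05 in edgeR there were 14 of the 32 members, beside 4917 of all 13255 tested genes. These values use the same DEN wild-type libraries as the comparison of DEN with PBS in wild type, so these comparisons are not independent of each other. The calls also depended on DENKO_141 and were not kept without it. In that fit the median over the members tested was 0.07, and without DENKO_309 instead it was 0.85. Each of these fits leaves 1 knockout library, which is assumed to vary as the other groups do, and all 8 members kept their sign in both.

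Aurkb had 3, 4 and 5 counts in DENWT_307, DENWT_995 and DENWT_996 and 28 and 18 in DENKO_141 and DENKO_309. Its level was 0.927 ± 0.218 CPM in the knockout and 0.159 ± 0.0302 CPM in wild type, which differed by 2.51 ± 0.47 in log2 (adjusted p = 0.0045), and by 2.23 ± 0.61 (adjusted p = 0.075) without DENKO_141. Mki67 had 14, 17 and 6 counts in wild type and 78 and 38 in the knockout (2.20 ± 0.50, adjusted p = 0.0093; 1.68 ± 0.60 and 0.14 without DENKO_141). For both genes each knockout library was above each wild-type library in CPM, and 56.6% of all tested genes had no overlap in this comparison.

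Kif23 had 6, 3 and 10 counts in wild type and 29 and 18 in the knockout (1.91 ± 0.49, adjusted p = 0.016; 0.17 without DENKO_141). Cenpe had 1, 0 and 3 counts in wild type and 14 and 5 in the knockout (2.74 ± 0.78, adjusted p = 0.026; 0.3 without DENKO_141, 0.058 without DENWT_307 and 0.052 without DENWT_995). Cenpa had 24, 40 and 42 counts in wild type and 69 and 57 in the knockout (0.86 ± 0.28, adjusted p = 0.043). Its call was lost in 8 of 11 fits that left out 1 library, at adjusted p up to 0.23. Top2a had 9, 16 and 18 counts in wild type and 73 and 19 in the knockout (1.68 ± 0.54, adjusted p = 0.043), and without DENKO_141 its difference was 0.51 ± 0.62 (adjusted p = 0.67). The Top2a call was also lost in 7 other fits that left out 1 library.

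The genes lower in the knockout were a kinetochore and a checkpoint gene. Spc25 had 580, 546 and 752 counts in wild type and 329 and 377 in the knockout, 24.9 ± 0.664 against 14.4 ± 2.47 CPM (−0.78 ± 0.20, adjusted p = 0.016; 0.18 without DENKO_141 and 0.052 without DENWT_996). Mad2l1 had 174, 156 and 223 counts in wild type and 98 and 88 in the knockout, 7.33 ± 0.227 against 3.78 ± 0.00202 CPM (−0.95 ± 0.23, adjusted p = 0.013). Its difference was −0.96 (adjusted p = 0.12) without DENKO_141 and −0.94 (0.069) without DENKO_309, so the size held while the call was lost with 1 knockout library. In the knockout both genes lay below every wild-type library under DEN. The same held in CPM for Cdc20 (−1.15 ± 0.40, adjusted p = 0.057), Aurka (−0.95 ± 0.35, 0.069), Kif20a (−1.06 ± 0.41, 0.079) and Hmmr (−1.45 ± 0.60, 0.099), none of which passed. Cdk1 did not pass in the other direction (0.98 ± 0.43, adjusted p = 0.11), with 63 and 22 counts in the knockout against 11, 25 and 29.

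By role, 3 of 6 tested genes of the passenger complex and kinetochore were higher in the knockout under DEN and 1 was lower, 2 of 3 genes of chromosome structure and 1 of 6 midzone genes were higher, and 1 of 5 checkpoint genes was lower. None of the 7 tested entry genes and none of the 5 spindle genes passed in edgeR. At an unadjusted p under 0.05 stood 2 and 1 of them, beside 4917 of all 13255 tested genes. Marker levels of other cell types differed between the same groups in part. T and NK markers summed to 2.62 to 3.74 CPM in the DEN knockout libraries against 0.748 to 1.17 in the DEN wild-type libraries, B and plasma cell markers to 14.6 to 16.2 against 4.66 to 8.86, and Kupffer cell and macrophage markers to 244 to 275 against 74.4 to 181. Erythroid precursor markers summed to 111 to 146 CPM against 95.5 to 107, with Rhag at 0 in both groups. Neutrophil and monocyte markers, at 14.9 to 19.4 CPM, lay inside the DEN wild-type range of 9.14 to 24.4, and endothelial markers, at 86.4 to 94.5, inside 86.4 to 115. Stellate cell markers summed to 55.6 to 56.6 CPM against 38.4 to 52.3, bile duct markers to 6.18 to 8.76 against 8.28 to 13.9, and hepatocyte markers to 74300 to 78400 against 80400 to 105000. Genes within a list did not always move together here either. In the erythroid list Alas2 stood at 86.6 and 63.3 CPM in DENKO_141 and DENKO_309 against 16.2 to 28.6 in DEN wild type. Tfrc stood at 50.6 and 41.3 against 62.5 to 87.6. In the B and plasma list Igj stood at 13.3 and 12.7 against 3.57 to 7.56, and Cd79a at 0.579 and 0.644 against 0.412 to 0.669. The part of these markers in the result was not tested.

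The interaction asks whether the response to DEN differed between the genotypes, as the knockout log2 fold change less the wild-type one. Of the 32 tested members 1 passed, beside 6.58% of all tested genes (4.07% higher and 2.5% lower). This was Aurkb, at 2.90 ± 0.64 (adjusted p = 0.026, n = 3, 3, 3 and 2). The call was lost without DENKO_141 (adjusted p = 0.16), DENWT_996 (0.053), PBSWT_541 (0.055) or PBSWT_545 (0.052). Mki67 was next at 2.29 ± 0.65 (adjusted p = 0.052), then Cdc20 at −1.75 ± 0.60 (0.092), Spc25 at −0.79 ± 0.28 (0.1), Cenpa at 1.0 ± 0.36 (0.11) and Mad2l1 at −0.86 ± 0.32 (0.12). The interaction of Mki67 passed with no filter on low counts (0.042) and in DESeq2 (0.012), and its adjusted p was 0.27 without DENKO_141. Aurkb was not called in the interaction by DESeq2. For Cdc20 and Mad2l1, called in wild type and not in the knockout, a different response was not shown.

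Because single members had few counts, the raw counts of all 40 were also summed per library and divided by the total of gene counts, expressed per 1000000 with no TMM factor. The sum was 35.7, 39.5 and 50.1 in PBSWT_541, PBSWT_542 and PBSWT_545, and 34.1, 42.4 and 52.3 in PBSKO_154, PBSKO_544 and PBSKO_549. It was 67.4, 72.7 and 81.7 in DENWT_307, DENWT_995 and DENWT_996, 68.9 and 58.1 in DENKO_141 and DENKO_309, and 68.1 in the library labelled heterozygote. The widest exact 95% interval, which covers counting error only, ran from 68.9 to 76.6, for DENWT_995. On gene count totals, all 6 DEN libraries were above all 6 PBS libraries. With TMM-scaled library sizes they overlapped, at 40.3 to 62 under PBS and 51.2 to 64 under DEN. The group means on gene count totals were 41.8 ± 7.45 (PBSWT), 42.9 ± 9.11 (PBSKO), 73.9 ± 7.22 (DENWT) and 63.5 ± 7.63 (DENKO). The DEN to PBS ratio was thus 1.77 in wild type and 1.48 in the knockout.

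Most of that difference came from Spc25. It made up 10.3% of the summed counts in the PBS wild-type libraries, 10.1% in the PBS knockout, 40.2% in the DEN wild-type and 25.4% in the DEN knockout libraries. Without Spc25 the means were 37.4, 38.5, 44.2 and 47.1 in the same order, with DEN to PBS ratios of 1.18 and 1.22, and the libraries overlapped: 32.1 to 44.2 and 29.5 to 47.8 under PBS, 40.3 to 49.1 and 39.7 to 54.6 under DEN. With gene count totals, the median log2 fold change of all tested genes after DEN was 0.53 in wild type and 0.41 in the knockout. The DEN to PBS ratios on that scale are to be read against this shift. The ratio of knockout to wild type under DEN went from 0.859 with Spc25 to 1.07 without it. Within the passenger and kinetochore genes without Spc25, the means were 8.85, 8.39, 4.99 and 8.74, a DEN to PBS ratio of 0.564 in wild type and 1.04 in the knockout. Scaling mattered as well: the log2 ratio of DEN to PBS was 0.82 in wild type and 0.56 in the knockout with gene count totals, 0.34 and 0.17 with TMM-scaled library sizes, and −0.20 and −0.02 as a mean of log2(CPM + 0.5) that weights each member equally. Without Spc25 and with TMM-scaled library sizes, the other 39 genes stood at 37.6, 42.9 and 51.3 in wild type under PBS and 35.9, 36.9 and 38.5 under DEN. In the knockout they stood at 34.9, 42.8 and 56.7 under PBS and 48.5 and 35 under DEN. The rise of their sum in wild type was thus seen with gene count totals and not with TMM-scaled sizes. The sum is a description with no test.

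**Figure D4:**
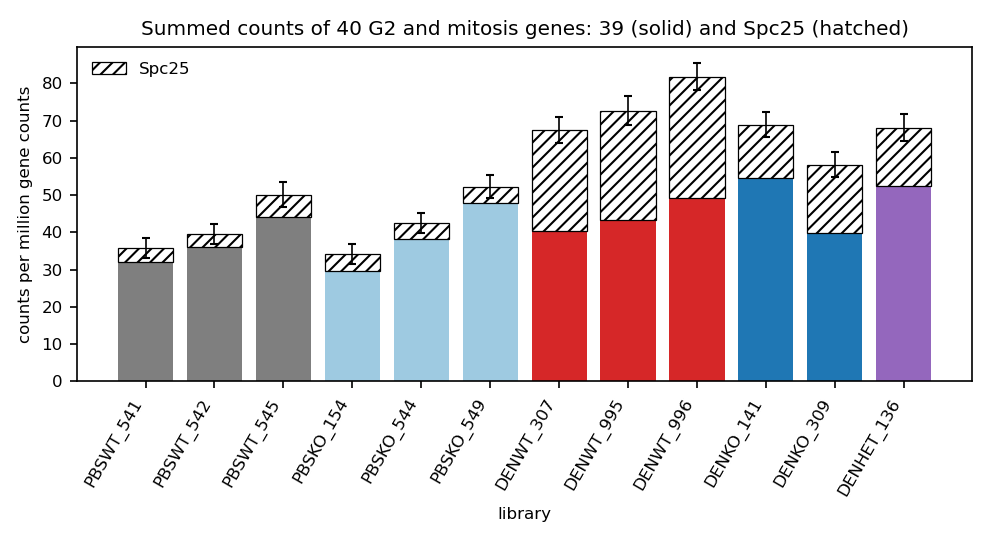
Summed raw counts of the 40 genes per 1000000 gene counts in each library; the solid part holds 39 genes and the hatched part Spc25, and bars on top are exact 95% counting intervals of the whole sum. The whole bars of the 6 libraries under DEN stand at 58.1 to 81.7, those of the 6 under PBS at 34.1 to 52.3, while the solid parts overlap between treatments.

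The 8 members with too few counts to test had 26 to 64 counts each over all 12 libraries. Bub1, which encodes a checkpoint kinase, had 4, 2 and 2 counts in wild type under PBS and 2, 0 and 3 under DEN. Ttk, which encodes the checkpoint kinase MPS1, had 1, 2 and 2 counts under PBS and 0, 4 and 2 under DEN in wild type, and 8 and 4 in the DEN knockout libraries. Ndc80 stood at 12 and 4 counts in the DEN knockout libraries and Nuf2 at 6 and 9. Ncapg, a condensin subunit gene, had 13 and 4 counts there against 5, 4 and 1 in DEN wild type. Cenpf, a kinetochore gene, had 2 to 8 counts per library and Kif2c, a microtubule depolymerase gene, 1 to 12. In DENKO_141 and DENKO_309, Bub1 stood at 4 and 0 counts, Ccnb1 at 1 and 3, Cenpf at 6 and 3 and Kif2c at 2 and 3. At this depth no difference in these genes was detectable between single libraries of a few counts.

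In the library labelled heterozygote, 8 members lay above all 6 PBS libraries in CPM, beside 40% of all tested genes: Spc25 (13.2 CPM), Mad2l1 (5.92), Aurka (2.9), Cdc20 (2.08), Kif20a (2.08), Bub1b (1.47), Hmmr (1.39) and Ube2c (0.898). Its Spc25 level lay within the range of the DEN knockout libraries, and its Aurka, Cdc20 and Kif20a levels within that of the DEN wild-type libraries. Mki67 stood at 1.18 CPM, between the DEN wild-type and DEN knockout ranges. Aurkb had 5 counts (0.204 CPM), next to the DEN wild-type range of 0.125 to 0.183 CPM and below the 1.08 and 0.773 CPM of the DEN knockout libraries. Of the 40 members, 13 lay within the DEN wild-type range and 14 within the DEN knockout range. These ranges span 3 and 2 libraries, so the counts cannot be compared with each other. The share over all tested genes was not computed, and no likeness to either genotype is read from them. Its neutrophil and monocyte markers summed to 75.1 CPM, above every other library.

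Other genes of the same pathways did not follow 1 pattern either. Of 65 further G2 and mitosis genes, 62 were in the files and 43 were tested. After DEN in wild type 12 were higher (27.9%) and 7 lower (16.3%), with a median of 0.21, beside 29.2% and 26.7% of all tested genes. Ckap2, a spindle-associated protein gene, went from 0.488 ± 0.215 to 25.9 ± 8.12 CPM (5.75 ± 0.32, adjusted p = 3.9e-08), and Gtse1, a G2-phase regulator of p53 and microtubules, from 1.89 ± 0.716 to 54.7 ± 16.4 CPM (4.85 ± 0.28, 6.6e-08). Zwint, a kinetochore gene, rose by 1.77 ± 0.15 (8.9e-07). In the knockout 5 of the 43 were higher (11.6%) and 3 lower (6.98%) after DEN, beside 12% and 10.7% of all tested genes. Under DEN, 2 were higher in the knockout than in wild type (4.65%) and 4 lower (9.3%), beside 12.2% and 9.85% of all tested genes. Among the lower ones were Zwint (−1.28 ± 0.17, adjusted p = 0.00074), Ccnf (−1.09 ± 0.26, 0.012) and Gtse1 (−1.04 ± 0.25, 0.013). Zwint was the single one of the 43 that passed the interaction (−1.20 ± 0.22, adjusted p = 0.015), beside 6.58% of all tested genes.

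Brakes on mitotic entry were more often higher than lower after DEN. This list, like the others, was chosen with earlier results of these data known. Its shares beside all tested genes are therefore a description. Of 18 tested, 10 rose (55.6%) and 2 fell (11.1%) in wild type, with a median of 0.85, beside 29.2% and 26.7% of all tested genes. In the knockout 9 rose (50%) and none fell, beside 12% and 10.7% of all tested genes. Ccng1, a p53-induced cyclin, rose by 4.18 ± 0.16 in wild type (adjusted p = 2e-09), from 40.8 ± 1.64 to 740 ± 60.5 CPM, and Btg2, an antiproliferative p53 target, by 4.68 ± 0.34 (1.6e-06). Rprm, a p53-induced inhibitor of the G2 to M step, had no count in any PBS library and was at least 98.5-fold higher after DEN in wild type and at least 28.6-fold higher in the knockout, the lower bound that 3 counts in all PBS libraries of a genotype would give. Under DEN 4 of the 18 were lower in the knockout (22.2%) and 2 higher (11.1%), beside 9.85% and 12.2% of all tested genes. Rprm (−1.86 ± 0.34, adjusted p = 0.007) and Gadd45a, a p53-induced inhibitor of CDK1 (−1.71 ± 0.45, 0.024), were lower, and Chek2, a damage checkpoint kinase gene, was higher (0.94 ± 0.28, 0.033). None of the 18 passed the interaction in edgeR, beside 6.58% of all tested genes called. At an unadjusted p under 0.05 stood 3 of them, beside 3355 of all 13255 tested genes.

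A further list held 13 tested genes of the DREAM and MuvB complexes and genes linked to them (Mybl2, Rb1 and Dyrk1a). In wild type after DEN, 2 rose (15.4%) and 4 fell (30.8%), beside 29.2% and 26.7% of all tested genes. Those that rose were the linked genes Rb1 and Mybl2. Mybl2 encodes B-MYB and is also among the further G2 and mitosis genes. In the knockout 1 rose (7.69%) and 2 fell (15.4%), beside 12% and 10.7%. None differed between genotypes under DEN in edgeR, beside 22.1% of all tested genes called. At an unadjusted p under 0.05 stood 2 of them, beside 4917 of all 13255 tested genes. Rbbp4, a histone-binding subunit of MuvB, fell by 0.84 ± 0.11 in wild type (adjusted p = 3.7e-05). Rbl2, the pocket protein p130 of DREAM, fell by 0.91 ± 0.15 (0.00017), and Rb1, the retinoblastoma protein gene, rose by 0.59 ± 0.15 (0.0049).

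Origin licensing and replication genes, which act in the phase before, changed in both directions too. Of 35 tested, 15 rose (42.9%) and 8 fell (22.9%) after DEN in wild type, beside 29.2% and 26.7% of all tested genes. In the knockout 2 rose and 2 fell (5.71% each), beside 12% and 10.7%. Mcm7, a subunit of the replicative helicase, rose by 2.59 ± 0.30 in wild type, while Mcm10, which activates that helicase, fell by 3.0 ± 0.27. Under DEN 4 were higher in the knockout than in wild type (11.4%) and 7 lower (20%), beside 12.2% and 9.85% of all tested genes. Tk1, a thymidine salvage kinase, was higher, at 18.3 ± 4.65 against 3.7 ± 1.72 CPM (2.34 ± 0.42, adjusted p = 0.0059), and Mcm7 was lower (−1.62 ± 0.32, 0.007). Both genes passed the interaction, Tk1 at 2.70 ± 0.55 (adjusted p = 0.027) and Mcm7 at −1.84 ± 0.43 (0.034).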

How the data were processed

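Livers of 8-week-old male mice were sequenced in 12 libraries. The files the authors deposited hold raw counts for each gene symbol, not normalized. The submitters' processing notes name bcl2fastq, TopHat2, HTSeq and build mm9. No version, annotation or strand setting is given in the sources used here. The 5 tally lines that name no gene, 61.4% to 78.7% of the listed counts, were left out.

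The test was edgeR 4.0.16's quasi-likelihood test (R 4.3.3, robust, TMM scaling, filterByExpr), in 1 fit of 11 libraries in 4 groups, with Benjamini-Hochberg adjustment over 13255 genes in each of 5 comparisons. CPM uses TMM-scaled library sizes. DESeq2 1.42.0 and limma-voom (3.58.1), other scalings, other filters and each library left out were alternatives. The method was tested on simulated data. Members and gene lists were chosen with earlier results of these data known.

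Every called member is given in full, the 3 of lowest p where none was called, and the 3 of lowest p from each other list, apart from items not reported here. Promoters of the 4 members with the highest number of comparisons called came from RefSeq, on a later assembly than mm9. Exon overlaps came from GENCODE M21 on that later assembly. The titles do not state that each library is a separate animal, so the spread behind the p-values may be partly technical. Exact 95% intervals cover counting error only.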

Additional observations from a re-analysis of the deposited data

Results flagged for a closer look

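Aurkb was singled out because its response to DEN differed between the genotypes in a test of the difference itself, with an interaction of 2.90 ± 0.64 on the log2 scale (edgeR, adjusted p = 0.026). In wild type it had 3, 4 and 5 counts under DEN, below the 8 to 16 under PBS. In the knockout it had 28 and 18 under DEN, above the 8 to 10 under PBS. The interaction call was lost in 4 of 11 fits that left out 1 library. Aurkb was not called in the interaction by DESeq2, where Mki67 was the only member past the threshold.

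The library labelled heterozygote was in no comparison, and 8 of the 40 members lay above every PBS library in it, beside 40% of all tested genes, namely Aurka, Bub1b, Mad2l1, Cdc20, Ube2c, Spc25, Hmmr and Kif20a.

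No group had 4 or more libraries, so single libraries were not tested as outliers.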

How the results depend on the processing

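No paired analysis was possible because no replicate number occurred in more than 1 group. Among the values of single genes under alternatives, 477 kept their direction and their side of the threshold, 71 were no longer past it, 6 were newly past it, all of them Mki67 in the interaction, and 0 changed sign.

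Members called lower after DEN in wild type went from 11 to 6 with library totals and to 5 with a filter of at least 1 CPM in 3 libraries, which tested fewer genes. With library totals, members called in the knockout went from 1 to 4 higher and from 1 to 0 lower, and members higher in the interaction from 1 to 2. That last count was 2 with no filter and 0 with the 1 CPM filter. Members higher in the knockout under DEN went from 6 to 3 with the 1 CPM filter and to 3 in a fit of the groups compared alone. The cause was not tested. Over all genes, DESeq2 called 1465 in the interaction in place of 872, and library totals 5297 in the knockout in place of 3010.

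The log2 ratio of the summed share, DEN over PBS in wild type, was 0.82. It was 0.34 with TMM-scaled sizes, 0.24 without Spc25 on gene count totals and −0.20 as a mean of log2(CPM + 0.5), which weights each member equally. In the knockout it was 0.56, and 0.17 with TMM-scaled sizes and −0.02 as that mean. For knockout over wild type under DEN it was −0.22, and 0.09 without Spc25 and 0.21 as that mean. An alternative without the 10 members whose exons overlap another counted gene was added after seeing the data and gave 0.86, 0.61 and −0.23 for these 3 ratios.

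Leaving out each library gave 4 to 6 members higher and 6 to 12 lower in wild type, and 1 to 1 higher and 0 to 1 lower in the knockout. It gave 0 to 6 higher and 0 to 5 lower in the knockout under DEN, and 0 to 2 higher and 0 to 1 lower in the interaction. The ratios ran from 0.72 to 0.97 (wild type), 0.42 to 0.73 (knockout), −0.35 to −0.10 (genotypes under DEN) and −0.13 to 0.19 (genotypes under PBS, 0.04 with all libraries, −0.13 without PBSKO_549 and −0.06 without PBSWT_541). Depth limited 8 of the 40 members to a description of their raw counts.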
